A study of Drosophila melanogaster with 4 samples.

Results

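The miRNA and siRNA machinery was followed through 8 genes, AGO1, AGO2, Dcr-1, Dcr-2, loqs, r2d2, drosha and pasha, taken by their symbols out of the 14664 genes of each expression table. All 8 had values in every library and passed the filter on low values. RNA was sequenced from testes of Drosophila melanogaster within 3 days of eclosion, in flies mutant for bam (bam-) and in flies mutant for Phf7 and bam together (Phf7-bam-), with 2 biological replicates of each genotype and 4 libraries in all. The genotypes are called the single and the double mutant below, and values of a genotype are given for replicate 1 and then replicate 2. Every library therefore comes from a bam mutant testis, in which germ cells stay in the early mitotic stages, and no testis with functional bam is part of the comparison. The alleles are not given in the labels. The comparison asks whether these genes differ when Phf7, which encodes a PHD finger protein of the male germline, is lost as well.

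Small RNAs themselves were not sequenced here, and the values are those of the messenger RNAs that encode the machinery. In the miRNA pathway the nuclear Microprocessor, made of the RNase III enzyme Drosha and its partner Pasha, cuts hairpins from primary transcripts. Dicer-1 with Loquacious then trims the hairpins, and the product is loaded into Argonaute-1, which represses target messenger RNAs. In the siRNA pathway Dicer-2 cuts long double-stranded RNA and, with R2D2, loads the product into Argonaute-2, which slices viral and transposon RNA. The miRNA pathway is known to be needed for the upkeep of germline stem cells in flies.

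The values are FPKM, fragments per kilobase of transcript scaled to library size, so levels can be set side by side between genes. Summed FPKM was 650127 to 662056 per library. Phf7 stood at 173 and 152 FPKM in the single mutant and 18.8 and 22.9 FPKM in the double mutant (limma adjusted p = 0.00706), and bam at 26.5 to 32.6 FPKM over the 4 libraries. The testis label was checked against marker genes: 4 of 4 germline and 4 of 4 cyst cell markers were above 0 in every library. The germline markers summed to 443 and 413 FPKM in bam and to 448 and 509 FPKM in Phf7 bam testes. Of these, nos was at 136 and 129 FPKM and at 171 and 205 FPKM (log2 change 0.49, limma adjusted p = 0.610). The genotypes overlapped for vas, bam and zpg. The cyst cell markers summed to 43.6 to 50.0 FPKM. Of 6 spermatocyte markers aly, bol and twe were at 7.15 to 34.3 FPKM while can, sa and comr were at 0.26 FPKM or less. The 3 hub markers were also above 0 throughout, with Fas3 at 29.2 to 33.6 FPKM, hh at 3.55 to 5.48 FPKM and upd1 at 0.19 to 0.28 FPKM. Accessory gland markers summed to 4.36 and 289 FPKM in bam replicates 1 and 2 and to 560.1 and 11.7 FPKM in Phf7 bam replicates 1 and 2, so 1 library of each genotype stood apart for this gland. The 5 muscle markers summed to 350.2 to 494 FPKM. The 4 fat body markers summed to 13.5 and 22.3 FPKM in bam and to 39.8 and 50.5 FPKM in Phf7 bam testes. The 4 haemocyte markers summed to 19.4 and 20.8 FPKM and to 26.8 and 27.7 FPKM. Both double mutant libraries were higher for Lsp2, Tsf1 and each haemocyte marker, while the fat body markers Fbp1 and Lsp1beta overlapped. The part of these tissues in the results below was not tested. In bulk tissue, fewer cells of a type and less RNA per cell cannot be told apart.

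No gene of the machinery was called different between the genotypes. limma, a linear model fitted to log2(FPKM + 1) of the 8965 genes whose FPKM averaged 1 or more, called 0 of the 8 at a Benjamini-Hochberg adjusted p under 0.05, and 0 had an unadjusted p under 0.05. Over all tested genes 0.234% were called, 0.123% as higher and 0.112% as lower, and 6.13% had an unadjusted p under 0.05, so a count of 0 among 8 genes is near the background. With robust moderation, where the prior spread can replace a gene's own, limma also called 0 of the 8, against 3.42% of all tested genes. The median change of the 8 was -0.04 on the log2 scale, with 3 positive and 5 negative values, and that of all tested genes was 0.03. The 95% intervals of the 8 changes lay between -0.76 and 0.46 on the log2 scale, so each stays short of a doubling or halving. A p that misses the threshold with n = 2 per genotype does not show that levels are equal.

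**Figure D1:**
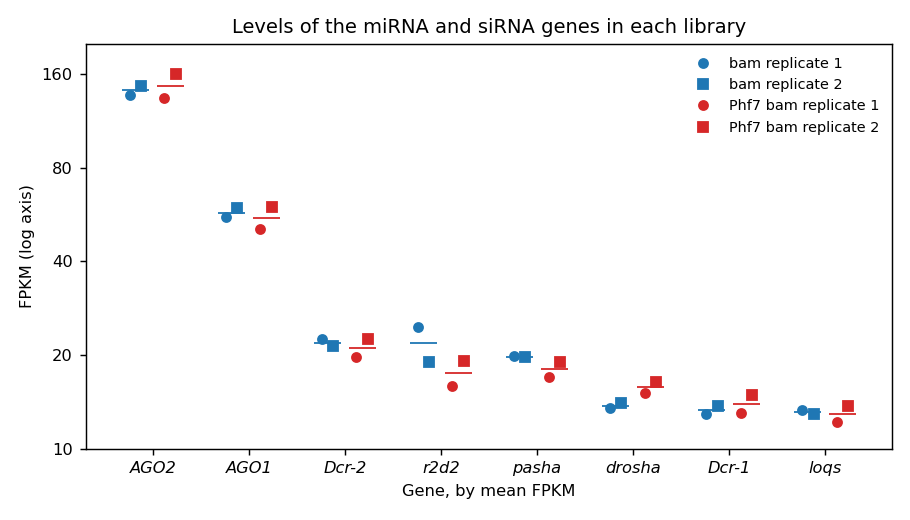
FPKM of each gene (log axis) in the 4 libraries, with blue for bam, red for Phf7 bam, circles for replicate 1, squares for replicate 2 and lines for genotype means. AGO2, at 134 to 160 FPKM, stands above AGO1 and both stand above the other 6 genes, and only drosha and pasha have genotypes that do not overlap.

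On the FPKM as deposited, the Microprocessor genes were the only members whose genotypes did not overlap, and their differences had opposite signs. Overlap was not counted again after rescaling the libraries. drosha (dm3, 2R, 3819931 to 3824360) encodes the RNase III enzyme that cuts primary miRNA transcripts, and it was at 13.5 and 14.0 FPKM in the single mutant and 15.1 and 16.4 FPKM in the double mutant. Both double mutant libraries thus lay above both bam libraries. The means were 13.8 ± 0.333 and 15.8 ± 0.954 FPKM (SD, n = 2 each), which gives a log2 change of 0.18 (SE 0.105, 95% interval -0.09 to 0.46, limma adjusted p = 0.906). pasha (dm3, 3R, 27443699 to 27447197), the double-stranded RNA-binding partner of Drosha, was at 19.8 and 19.7 FPKM in the single mutant and 17.0 and 19.0 FPKM in the double mutant. Here both double mutant libraries lay below both bam libraries. Its means were 19.8 ± 0.0825 and 18.0 ± 1.41 FPKM (SD, n = 2 each), which gives a log2 change of -0.13 (SE 0.108, 95% interval -0.41 to 0.15, limma adjusted p = 0.923). Without Phf7 bam replicate 1 the change of pasha was -0.054, beside a median of 0.115 over all tested genes. Such a separation is common in these data: among all tested genes both Phf7 bam libraries lay above both bam libraries for 20.5% and below them for 14.0%, 34.5% together, against 2 of the 8 members. In the intervals of the authors' deposited table, drosha spans 12.3 to 14.4 and 12.8 to 14.5 FPKM in the bam libraries and 13.8 to 15.6 and 15.1 to 17.0 FPKM in the Phf7 bam libraries. The interval of Phf7 bam replicate 1 overlaps those of both bam libraries, and that of replicate 2 lies above both. For pasha the authors' deposited table gives 17.5 to 20.6 and 17.5 to 20.4 FPKM in the bam libraries and 15.0 to 17.7 and 16.9 to 19.2 FPKM in the Phf7 bam libraries, and each double mutant interval overlaps both bam intervals.

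Dcr-1 and Dcr-2 encode the RNase III enzymes that produce miRNAs and siRNAs in the cytoplasm. Dcr-1 (dm3, 3R, 18559727 to 18566752) was at 13.0 and 13.7 FPKM in the single mutant and 13.0 and 14.8 FPKM in the double mutant. The genotypes overlapped, with a log2 change of 0.06 (SE 0.116, 95% interval -0.25 to 0.36, limma adjusted p = 0.982). Dcr-2 (dm3, 2R, 13462484 to 13469011) was higher than Dcr-1 in each library, at 22.5 and 21.4 FPKM in the single mutant and 19.8 and 22.5 FPKM in the double mutant. The lowest and the highest value of Dcr-2 both came from the double mutant, and the change was -0.05 (SE 0.115, 95% interval -0.36 to 0.25, limma adjusted p = 0.982).

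The double-stranded RNA-binding partners of the Dicers differed in how steady they were. loqs (dm3, 2L, 13382648 to 13385674) encodes Loquacious, whose protein isoforms serve Dicer-1 or Dicer-2. It had the lowest mean of the 8, at 13.3 and 13.0 FPKM in the single mutant and 12.2 and 13.7 FPKM in the double mutant. These values overlap, with a log2 change of -0.02 (SE 0.111, limma adjusted p = 0.989). The Ensembl annotation lists 6 transcripts of loqs, and a value per gene does not tell its isoforms apart. r2d2 (dm3, 2L, 7800167 to 7802008) encodes the partner of Dicer-2 in loading Argonaute-2, and it varied more than any other member, from 24.7 and 19.0 FPKM in bam replicates 1 and 2 to 15.9 and 19.1 FPKM in Phf7 bam replicates 1 and 2. bam replicate 1 stood highest and Phf7 bam replicate 1 lowest, while the replicates numbered 2 were nearly equal. The means were 21.9 ± 3.99 and 17.5 ± 2.28 FPKM (SD, n = 2 each), and the change of -0.30 on the log2 scale was the largest of the 8 in size, with the widest interval (SE 0.173, 95% interval -0.76 to 0.15, limma adjusted p = 0.906). In the authors' deposited table the interval of r2d2 in bam replicate 1, 22.7 to 26.8 FPKM, lies above that in bam replicate 2, 17.5 to 20.7 FPKM. Without bam replicate 1 the change was -0.12, and without Phf7 bam replicate 1 it was -0.17. The medians over all tested genes in these settings were 0.022 and 0.115.

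The Argonaute genes had the highest levels of the machinery. AGO2 (dm3, 3L, 15547217 to 15554146), the slicer of the siRNA pathway, was at 137 and 147 FPKM in the single mutant and 134 and 160 FPKM in the double mutant. Both Phf7 bam values lie outside the bam pair, on opposite sides of it, and the log2 change was 0.05 (SE 0.136, 95% interval -0.31 to 0.41, limma adjusted p = 0.988). AGO1 (dm3, 2R, 9834047 to 9845594), the effector of miRNAs, was at 55.6 and 59.3 FPKM in the single mutant and 50.9 and 59.7 FPKM in the double mutant. Its genotypes overlapped too, with a change of -0.06 (SE 0.127, 95% interval -0.39 to 0.27, limma adjusted p = 0.983). The locus of AGO1 holds the whole of mRpL53, a mitochondrial ribosomal protein gene on the opposite strand that was at 70.7 to 96.9 FPKM. AGO2 overlaps CG7739 on the opposite strand by 314 bp, and CG7739 was listed at 0 in all 4 libraries. Whether strand was used in quantification is not stated, and without it reads of these shared stretches have no single gene of origin.

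**Figure D2:**
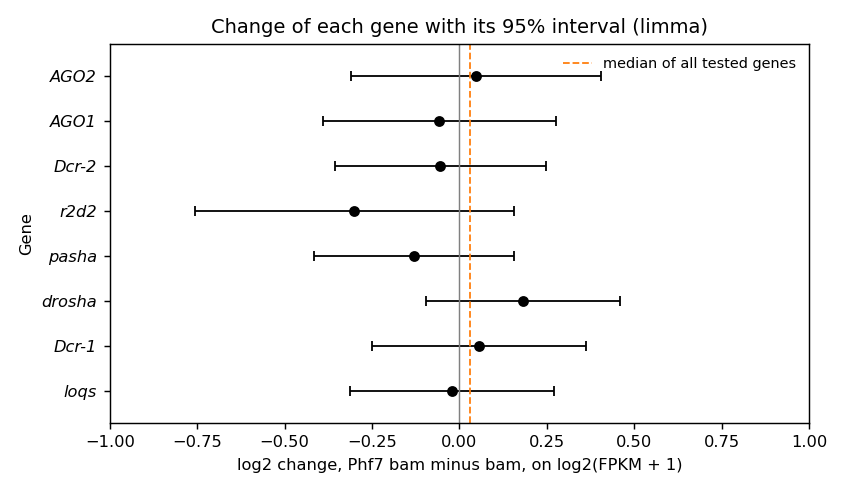
Change of each gene from bam to Phf7 bam testes on the log2(FPKM + 1) scale (horizontal axis), with bars for the 95% interval from limma and a dashed line at the median of all tested genes, 0.03. Every interval holds 0, and r2d2, at -0.30, has the widest.

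In order of mean FPKM over the 4 libraries the genes stood as AGO2, AGO1, Dcr-2, r2d2, pasha, drosha, Dcr-1 and loqs. The mean FPKM was 144 for AGO2, 56.4 for AGO1, 21.5 for Dcr-2 and 13.0 for loqs. The ranges of AGO2, AGO1 and Dcr-2 over libraries did not overlap one another. The ranges of Dcr-2, r2d2 and pasha overlapped from neighbour to neighbour, and so did those of drosha, Dcr-1 and loqs. Within libraries Dcr-2 was above pasha, and drosha above both Dcr-1 and loqs, in 4 of 4. The place of r2d2 beside Dcr-2 and pasha, and the order of Dcr-1 and loqs, changed between libraries. The range of pasha lay wholly above that of drosha. AGO2 had a higher mean than 94.5% of the tested genes and AGO1 than 84.0%, while the other 6 lay between 42.2% and 58.7%. The Argonaute messages were thus far up the distribution, and those of the processing enzymes and their partners near its middle.

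In each of the 4 libraries AGO2 was above AGO1, Dcr-2 above Dcr-1 and r2d2 above loqs, whose isoforms serve both pathways. The FPKM ratio of AGO2 to AGO1 was 2.46 and 2.48 in the single mutant and 2.64 and 2.68 in the double mutant. Replicates lay close together, and the genotypes were apart by 0.11 on the log2 scale. The ratio of Dcr-2 to Dcr-1 was 1.74 and 1.56 in the single mutant and 1.52 and 1.52 in the double mutant, a mean difference of -0.12 on the log2 scale, which was -0.042 without bam replicate 1 and -0.19 without bam replicate 2. The ratio of r2d2 to loqs was 1.86 and 1.47 in the single mutant and 1.30 and 1.40 in the double mutant, a difference of -0.29 on the log2 scale to which bam replicate 1 contributed most, since it was -0.12 without that library.

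Within the Microprocessor the ratio of drosha to pasha was 0.68 and 0.71 in the single mutant and 0.89 and 0.86 in the double mutant. The transcript of drosha was below that of pasha in every library, and the gap was narrower in both double mutant libraries. The difference was 0.33 on the log2 scale, with means of -0.52 ± 0.0410 and -0.19 ± 0.0260 (SD, n = 2 each). A ratio within a library does not depend on the scaling of that library. It shows unequal levels or unequal change of a pair, not which gene of the pair changed. None of the 4 ratios overlapped between genotypes, and each had a two-sided exact permutation p = 0.333, also after Benjamini-Hochberg adjustment over the 4. This is the smallest p that 2 against 2 libraries allow, so no ratio could have passed. Of single genes 34.5% did not overlap either, no such share was computed for other pairs of genes, and the count of 4 is a description only.

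**Figure D3:**
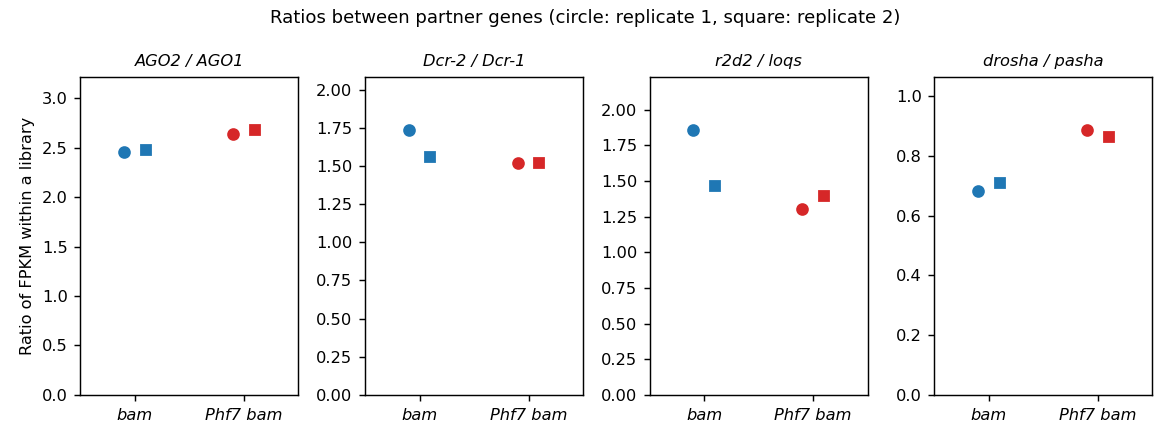
Ratio of FPKM between partner genes within each library (vertical axes start at 0), with blue for bam, red for Phf7 bam, circles for replicate 1 and squares for replicate 2. The ratio of drosha to pasha is 0.68 and 0.71 in blue and 0.89 and 0.86 in red. Replicates lie closest together for AGO2 to AGO1 in blue and for Dcr-2 to Dcr-1 in red.

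The replicates of the double mutant differed in the same direction for the whole machinery. All 8 genes were lower in Phf7 bam replicate 1 than in replicate 2, by a median of 0.18 on the log2 scale. This was also the case for 83.6% of all tested genes, with the same median of 0.18. Between the bam libraries 4 of the 8 genes were lower in replicate 1, against 50.5% of all tested genes. The members thus followed the bulk of genes in these libraries. With libraries scaled to equal medians, drosha and pasha had an unadjusted p under 0.05 and changes of 0.16 and -0.16, but their limma adjusted p were 0.362 and 0.351, and 13.6% of all tested genes had an unadjusted p under 0.05 in that setting. With quantile normalization only pasha of the 8 had one (limma adjusted p = 0.366), against 12.8% of all tested genes.

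Around the 8 genes, 53 others were read from the same fit in 6 lists. They are cofactors and effectors of the machinery or genes of related proteins. Of these, 52 were tested, and limma called 0 higher and 0 lower, with 0 at an unadjusted p under 0.05 and 0 called with robust moderation. Their median change was 0.05 on the log2 scale, with 34 positive and 18 negative values. For all tested genes the median was 0.03, with 5143 positive and 3822 negative values. The genotypes did not overlap for 13 of the 52, against 34.5% of all tested genes. lin-28, which blocks maturation of let-7 in animals, was the single gene under the filter, at 0.17 FPKM or less in every library.

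**Figure D4:**
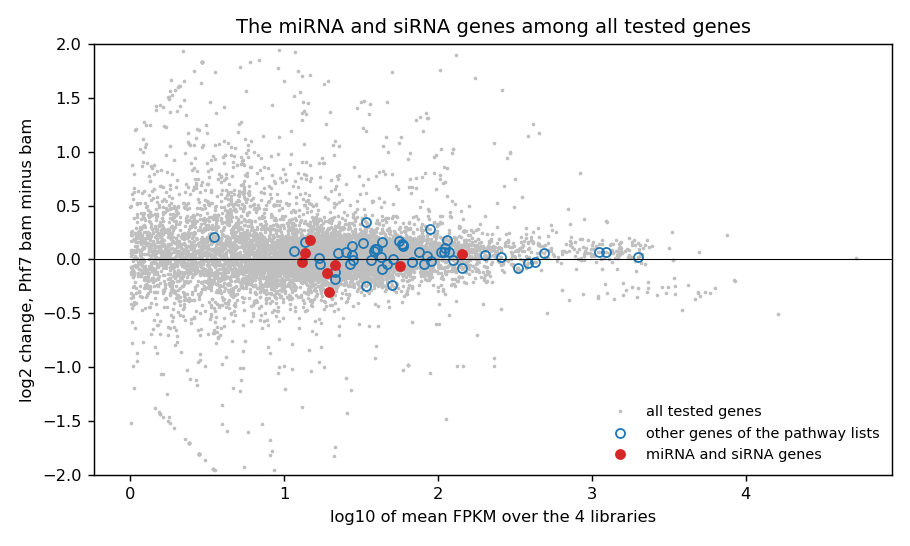
Change from bam to Phf7 bam testes (vertical axis, log2) against log10 of the mean FPKM over libraries for all 8965 tested genes in grey, the pathway lists as open blue circles and the 8 genes in red. All 8 sit within the band around 0, and 170 tested genes with changes beyond 2 in size fall outside the axis.

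Of 10 cofactors of miRNA biogenesis and turnover 9 were tested and 0 were called, with a median change of -0.003 on the log2 scale. Rm62, a DEAD-box helicase, had the highest level of the list, at 397 and 384 FPKM in the single mutant and 350.2 and 415 FPKM in the double mutant (change -0.03, limma adjusted p = 0.988). Dis3l2, an exonuclease that degrades uridylated RNA, had the largest change of the list, -0.18, with values of 22.2 and 22.9 FPKM and of 16.5 and 23.6 FPKM (limma adjusted p = 0.944). In FPKM only Phf7 bam replicate 1 stood low for Dis3l2. Without it the change was 0.06, beside a median of 0.115 over all tested genes.

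Of 13 genes for siRNA loading and cofactors 13 were tested and 0 were called, with a median of 0.02 on the log2 scale. The chaperone Hsc70-4, which helps to load Argonautes, was the most abundant, at 2015 and 1966 FPKM in the single mutant and 1914 and 2121 FPKM in the double mutant (change 0.02, limma adjusted p = 0.991). Trax, a subunit of the endonuclease C3PO that activates RISC, had the largest change of the list, 0.34, at 31.6 and 28.0 FPKM and at 30.9 and 46.7 FPKM (SE 0.220, limma adjusted p = 0.906). Phf7 bam replicate 2 alone stood apart for Trax, and without it the change was 0.05, beside a median of -0.059 over all tested genes. Chosen for their roles after their values were seen, blanks, a double-stranded RNA-binding protein of the male germline, was at 156 and 138 FPKM and at 123 and 155 FPKM (change -0.08, limma adjusted p = 0.981), and Hen1, the methyltransferase that protects siRNA ends, at 12.3 and 10.2 FPKM and at 11.3 and 12.6 FPKM (change 0.08, limma adjusted p = 0.979). Both overlapped between genotypes, and blanks was close to AGO2 in level.

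Of 18 silencing effectors of AGO1, which shorten tails, remove caps and repress translation, 18 were tested and 0 were called. Their median change was 0.07 on the log2 scale, with 14 positive and 4 negative, beside 5143 positive and 3822 negative of all tested genes. Genotypes did not overlap for 5 of the 18, each higher in the double mutant. Of all tested genes 34.5% did not overlap, 20.5% as higher. pAbp, which encodes the poly(A)-binding protein, was at 1210 and 1187 FPKM in the single mutant and 1163 and 1365 FPKM in the double mutant (change 0.07, limma adjusted p = 0.981). Not10, a subunit of the CCR4-NOT deadenylase, had the largest change, 0.17, at 12.8 and 13.0 FPKM and at 13.8 and 15.4 FPKM (limma adjusted p = 0.906), with both double mutant libraries above both bam libraries. gw, which encodes the GW182 protein that links Argonaute-1 to deadenylation, was also chosen for its role after its values were seen. It was at 90.3 and 89.5 FPKM and at 82.2 and 96.6 FPKM (change -0.01, limma adjusted p = 0.995), above AGO1 in each library.

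The PIWI-clade Argonautes, which bind piRNAs, are the closest relatives of AGO1 and AGO2 in the genome and were 3 of 3 uncalled. aub had the highest level, at 108 and 105 FPKM in the single mutant and 114 and 129 FPKM in the double mutant (change 0.18, limma adjusted p = 0.906), and piwi the largest change, 0.28, at 78.6 and 80.1 FPKM and at 85.1 and 109 FPKM (limma adjusted p = 0.906). AGO3 was at 53.9 to 62.8 FPKM (change 0.13, limma adjusted p = 0.925), close to AGO1. For each of the 3 both double mutant libraries lay above both bam libraries, as they did for 20.5% of all tested genes. Without Phf7 bam replicate 2 the change of piwi was 0.10 and that of aub 0.091, beside a median of -0.059 over all tested genes. Summed over the 5 Argonaute genes, AGO2 held 30.2% to 33.0% of FPKM and AGO1 11.5% to 13.3% over the 4 libraries. The share of AGO1 was 12.7% and 13.3% in the single mutant and 11.5% and 11.5% in the double mutant. AGO2 thus had the largest share in each library, at 31.2% and 33.0% in the single mutant and 30.2% and 30.7% in the double mutant. The shares of AGO1 and AGO2 were lower in both double mutant libraries. Those of piwi and aub were higher there, with piwi at 19.2% and 21.0% against 17.9% and 18.0%. For aub the gap was narrow, at 25.55% and 24.76% against 24.70% and 23.56%, and the share of AGO3 overlapped. Shares of a library add up to the whole, so they are not separate results. How often such shares do not overlap was not computed for other genes. These shares were not tested.

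Of 4 TRIM-NHL genes, which encode RNA-binding and ubiquitin ligase proteins, some of them known to act with the miRNA pathway, 4 were tested and 0 were called. mei-P26, a regulator of germ cell growth and differentiation that is known to bind Argonaute-1, was at 38.8 and 38.2 FPKM in the single mutant and 37.7 and 45.3 FPKM in the double mutant (change 0.10, limma adjusted p = 0.974). tn had the largest change, 0.21, at 2.86 and 3.51 FPKM and at 3.62 and 4.02 FPKM (limma adjusted p = 0.923). Of 5 other double-stranded RNA-binding protein genes, 5 were tested and 0 were called. DIP1 was the highest, at 101 to 122 FPKM (change 0.07, limma adjusted p = 0.981). Zn72D, a zinc finger protein that takes part in RNA splicing and editing, had the largest change, -0.25, at 37.3 and 36.4 FPKM in the single mutant and 27.7 and 34.3 FPKM in the double mutant (limma adjusted p = 0.906). The change was -0.10 without Phf7 bam replicate 1 and -0.40 without replicate 2. The medians over all tested genes were then 0.115 and -0.059.

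**Figure D5:**
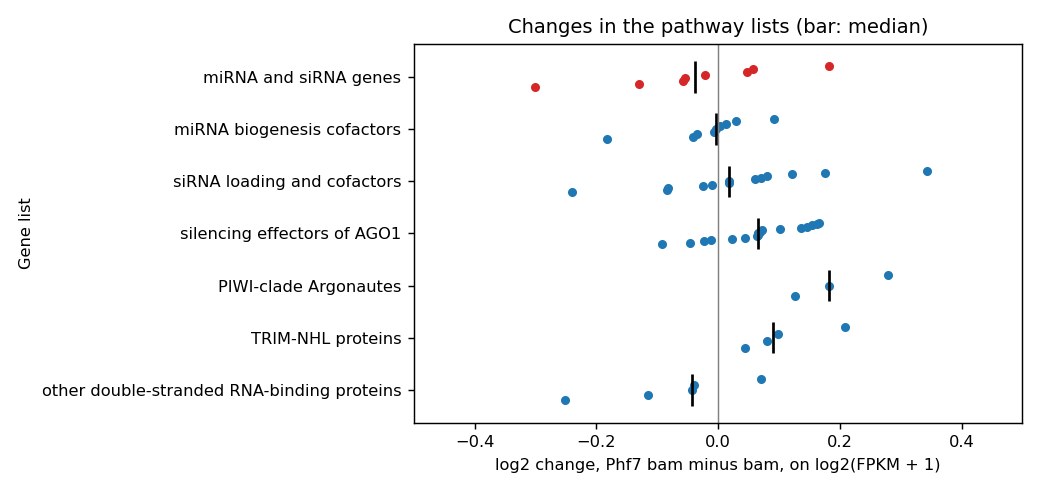
Change from bam to Phf7 bam testes on the log2(FPKM + 1) scale (horizontal axis) for each tested gene of the 8 in red and of the 6 pathway lists in blue, with black bars for medians. The median of the 8 lies at -0.04, and single genes lie between -0.30 for r2d2 and 0.34 for Trax.

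The products of the machinery could not be read from these tables. Of 90 rows for miRNA genes, named mir, ban or let-7, 90 were listed at 0 in all 4 libraries. Their loci span 19 to 100 bp with a median of 22 bp, the length of a mature miRNA. The libraries were made from RNA that binds oligo-dT, and mature miRNAs have no poly(A) tail. No statement on miRNA or siRNA levels in either genotype follows from these values.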

How the data were processed

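The protocols in the labels state that testes were dissected cold, that RNA was selected on oligo-dT and that a directional library kit was used. TopHat2, Cufflinks, Cuffdiff and the build dm3 are listed, without versions, per the submitters' processing notes. Neither annotation nor strand setting is given in the sources used here. For each library the authors deposited a table of FPKM, interval bounds and status over 14664 genes, per the file headers. Depth is unknown, so no counting interval is given.

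The 8965 genes whose FPKM averaged 1 or more were fitted as log2(FPKM + 1) by genotype using limma 3.58.1 (R 4.3.3), with a trend on expression, two-sided, and adjusted over all of them. The fit had 2 residual degrees of freedom and 2.64 from the prior. The step was run on simulated data with planted changes larger than those of the members, so it does not bear on detecting changes of their size. Changes are Phf7 bam minus bam, and on this scale the change of low genes is understated. p-values measure the spread between the samples the labels call biological replicates. With robust moderation the prior degrees of freedom were infinite for at least some genes. The p-values of those genes rest on the prior spread, not on their own replicates. Ratios of partner genes were compared with an exact permutation test. Python 3.11.15 with pandas 2.3.3, numpy 2.4.6 and matplotlib 3.10.9 made the tables and plots.

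The 8 genes and the lists were chosen with earlier results of these data known. All 8 were named, and in each list the gene with the highest mean, the gene with the largest change and any called gene. Coordinates are dm3, counted from 1. Strand and transcript numbers came by symbol from an annotation of a later build. Sequences were not used here.

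Alternatives were pseudocounts of 0.1 and 0.5, no filter or a stricter one at a mean of 5, equal medians, quantile normalization, no trend, robust moderation, the replicate number as a block, genes of status OK throughout and each library left out. A genotype left with 1 library is assumed to vary like the other. A crossed block was added after seeing the data.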

Additional observations from a re-analysis of the deposited data

How the results depend on the processing

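The 8 genes and the 53 pathway genes gave 0 limma calls in all 15 other settings, and the lowest limma adjusted p of a member over them was 0.326. Of all tested genes 21 were called, against 0 with no filter (1051 at an unadjusted p under 0.05), 37 with a mean FPKM of at least 5, 307 with robust moderation and 0 to 101 with a library left out. r2d2, drosha and pasha kept their sign in all 14 planned settings. AGO2 turned to -0.0175 with quantile normalization and lay between -0.0783 and 0.172 with a library left out. With a library left out AGO1 lay between -0.171 and 0.0540, Dcr-1 between -0.0319 and 0.145, Dcr-2 between -0.144 and 0.0351, loqs between -0.0989 and 0.0556, Rm62 between -0.157 and 0.0888, Dis3l2 between -0.429 and 0.0622, Hsc70-4 between -0.0565 and 0.0916, pAbp between -0.0434 and 0.188, mei-P26 between -0.0297 and 0.228, DIP1 between -0.0652 and 0.204, blanks between -0.247 and 0.0792, Hen1 between -0.0459 and 0.206 and gw between -0.127 and 0.103. Hsc70-4 was at -0.00997 with equal medians and at -0.00229 with quantile normalization, and DIP1 at -0.0171 with the latter. The cause of these turns of sign was not tested. The median change of all tested genes was itself 0.115 without Phf7 bam replicate 1 and -0.0586 without replicate 2. With a library left out and no change of sign, pasha lay between -0.206 and -0.0539, AGO3 between 0.0608 and 0.193, Not10 between 0.0928 and 0.239 and tn between 0.0945 and 0.321. Phf7 kept its negative change, but its limma adjusted p was 0.192 with no filter, 0.141 without Phf7 bam replicate 1 and 0.105 without replicate 2.

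The replicate block gave 18 calls and 0 among the members. Over 8965 genes the differences between replicates 1 and 2 of the genotypes had a correlation of -0.367. This value does not settle whether equal replicate numbers mark paired libraries. The crossed block, chosen after seeing the data, gave 133 calls, 0 of them members. With the replicate block the ratios differed by 0.11 for AGO2 to AGO1, -0.12 for Dcr-2 to Dcr-1, -0.29 for r2d2 to loqs and 0.33 for drosha to pasha, the same as without it, since a block cannot alter a mean difference in a balanced design. Their signs with a library left out were fixed by groups that do not overlap. Depth is unknown, and with 2 libraries per genotype changes well beyond the members' intervals can miss the threshold: Tsf1, a fat body marker, had a change of 1.07 and limma adjusted p = 0.0852.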
